A study of Mus musculus with 18 samples.

Results

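Penk, Hrh4, Cnr2, Gabrr2 and Gpm6b are 5 genes of neural and paracrine signalling whose transcripts were measured in mouse T cells with and without the histone methyltransferase G9a, which the gene Ehmt2 encodes. They were chosen from the RNA values themselves, with the group levels of all 3 RNA comparisons known, so their levels and differences are given as a description and carry no test. They are 5 of 23234 gene symbols in the RNA table and the named gene of 87 of 375410 H3K9me3 peaks over 4 peak lists. All 5 averaged 0.5 FPKM or more across the 10 RNA libraries, the filter for genes that entered the fit, and each reached it through the groups in which it was high.

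RNA was sequenced from T cells of the spleen and lymph nodes of C57BL/6 mice that had proliferated for 4 weeks in lymphopenic surroundings. The groups were G9a KO CD4+CD8+ cells (KO DP, n = 4), G9a KO CD4-CD8+ cells (KO SP, n = 2) and G9a WT CD4-CD8+ cells (WT SP, n = 4). No WT cells with both coreceptors were among the samples, so between KO DP and WT SP the phenotype and the genotype differ together. H3K9me3, a histone mark of silent chromatin, was mapped by native ChIP-seq in cultured spleen CD8 T cells, stimulated with antibodies to CD3 and CD28, of WT (n = 2) and G9a KO (n = 2) mice. The labels do not say which allele or Cre removed G9a, how old the animals were or whether each sample came from another animal.

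As background, Penk encodes proenkephalin, the precursor that prohormone convertases cut into the enkephalins, peptides that act on opioid receptors. Hrh4 and Cnr2 encode G protein-coupled receptors found mainly on cells of the blood and immune system, for histamine and for endocannabinoids. Gabrr2 encodes a rho subunit of the GABA-gated chloride channels, best known from the retina, and Gpm6b encodes a tetraspan membrane glycoprotein of the proteolipid family, best known from neurons and glia. G9a places methyl groups on lysine 9 of histone H3, mainly as the mono- and dimethyl marks, whereas H3K9me3 is written mainly by other enzymes.

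The labels were checked first. Ehmt2 stood at 20.9, 23.6, 12.8 and 7.28 FPKM in KO DP, 12.6 and 13.6 FPKM in KO SP and 18.1, 42.6, 27.0 and 21.5 FPKM in WT SP. The KO DP and WT SP ranges overlapped, and an FPKM over the whole gene does not check a deletion of part of it, so the genotype is used as labelled. Cd4 was 49.4 to 178 FPKM in KO DP and at most 0.495 FPKM in the other 6 libraries, and the 7 T cell markers were all present. KO DP replicates 3 and 4 stand apart: their FPKM values summed to 292872 and 183632 against 441903 to 504013 in the other 8 libraries, and the mean over 1118 genes of olfactory receptors, proteins of the nose, was 0.149 and 0.227 FPKM against at most 0.0210 elsewhere. Xist, the transcript of the inactive X chromosome, was 1.88 to 4.58 FPKM in the 6 KO libraries and at most 0.0338 FPKM in the 4 WT libraries, while the Y-linked Ddx3y was at most 0.543 FPKM in KO and 21.5 to 27.9 FPKM in WT. Sex and genotype therefore cannot be told apart in the RNA data, which bears most directly on Gpm6b, an X-linked gene. In these bulk samples fewer cells of a type and less RNA per cell cannot be told apart either.

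The promoters of the members differ in their content of CpG, the dinucleotide at which DNA methylation occurs, and are shown because the H3K9me3 peaks described further on are placed relative to these genes. RefSeq promoter windows, from 250 bases before to 50 after the annotated start on GRCm38.p6, were matched for 3 of the 5 members, Gabrr2, Cnr2 and Gpm6b, and CpG is written in capitals. The Cnr2 window lies at chr4:135894939-135895238, that of Gabrr2 at chr4:33062862-33063161 and that of Gpm6b at chrX:166238693-166238992, all on the plus strand. These coordinates are of another build than the mm9 peaks and are not compared with them.
Cnr2: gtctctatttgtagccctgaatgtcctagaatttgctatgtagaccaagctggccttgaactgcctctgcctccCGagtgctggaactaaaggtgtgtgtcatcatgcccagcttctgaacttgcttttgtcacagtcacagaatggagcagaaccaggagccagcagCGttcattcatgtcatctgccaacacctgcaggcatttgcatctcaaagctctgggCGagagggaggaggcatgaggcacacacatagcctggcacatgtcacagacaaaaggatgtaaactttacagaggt
Gabrr2: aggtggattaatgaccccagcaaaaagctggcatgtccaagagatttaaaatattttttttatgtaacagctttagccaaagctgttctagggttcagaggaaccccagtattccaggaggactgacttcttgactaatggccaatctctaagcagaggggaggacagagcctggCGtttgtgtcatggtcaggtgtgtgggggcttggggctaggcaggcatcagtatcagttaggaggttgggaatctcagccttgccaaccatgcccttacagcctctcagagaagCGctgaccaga
Gpm6b: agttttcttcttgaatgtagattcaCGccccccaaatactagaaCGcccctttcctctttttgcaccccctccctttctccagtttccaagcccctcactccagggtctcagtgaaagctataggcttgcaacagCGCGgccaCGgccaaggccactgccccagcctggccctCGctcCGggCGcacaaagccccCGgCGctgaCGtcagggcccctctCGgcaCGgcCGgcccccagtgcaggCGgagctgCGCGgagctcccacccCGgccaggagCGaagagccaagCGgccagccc
The Cnr2 window holds 3 CpG, as does the window at the second annotated Cnr2 start, and the Gabrr2 window holds 2. The Gpm6b window holds 20 CpG at 65.3% G and C, against 49.3% for Gabrr2. The median over 32851 mouse promoter windows of this length was 7 CpG, and 26.5% of them held at least as many CpG as Gpm6b, 76.7% at least as many as Cnr2 and 85.9% at least as many as Gabrr2. The palindrome TGACGTCA, the full cyclic AMP response element, was found in the Gpm6b window and not in the others, and 1.79% of all windows held it on either strand.

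The 5 genes fell into 3 shapes over the groups. Penk was high in KO DP and low in both CD4-CD8+ groups, and Cnr2 was the reverse, low in KO DP and high in both CD4-CD8+ groups. Hrh4 and Gpm6b were lowest in WT SP, intermediate in KO SP and highest in KO DP, although the intermediate position of Gpm6b was set off only from WT SP. Gabrr2 peaked in KO SP. The plot of FPKM by library shows these shapes for each gene.

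**Figure D1:**
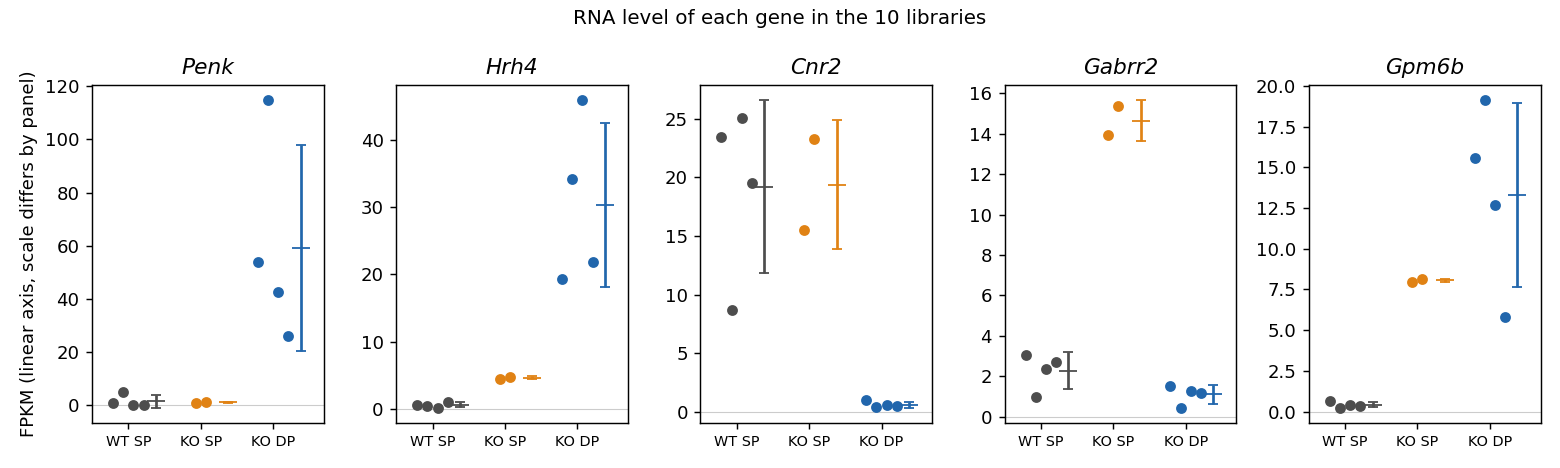
FPKM of each of the 5 genes in every RNA library, as points by group (WT SP n = 4, KO SP n = 2, KO DP n = 4) beside the group mean and SD, on linear axes that differ by panel. Penk lies at 25.9 to 114.7 FPKM in KO DP and at most 5.11 FPKM elsewhere, Cnr2 at most 0.979 FPKM in KO DP and at least 8.69 FPKM elsewhere, and Gabrr2 at 13.9 and 15.4 FPKM in KO SP alone.

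Penk, the enkephalin precursor, stood at 53.7, 114.7, 42.8 and 25.9 FPKM in KO DP. It stood at 0.919 and 1.27 FPKM in KO SP and at 0.954, 5.11 and 0.176 FPKM in WT SP replicates 1 to 3, and was listed at 0 in WT SP replicate 4. All 4 KO DP libraries were above the other 6, whose 2 groups overlapped, and WT SP replicate 2 was the highest of those 6. Within KO DP, Penk ranked between the 89.8th and the 95.4th percentile of the genes above 0 in the same library, and in WT SP between the 28.8th and the 47.9th among the libraries where it was above 0. On log2(FPKM + 1), a scale that understates changes of low genes, KO DP minus WT SP was 4.75 ± 0.56 (SE), KO DP minus KO SP was 4.64 ± 0.69 and KO SP minus WT SP was 0.11 ± 0.69. The mean in KO DP, 59.3 ± 38.7 FPKM (SD, n = 4), was 54.0 times that in KO SP, 1.10 ± 0.251 FPKM (SD, n = 2).

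The spread of Penk within KO DP followed the library totals in part. After each library was scaled by its median-ratio size factor, which was 1.17, 1.17, 0.747 and 0.469 in the KO DP libraries and 1.07 to 1.23 in the others, Penk was 45.8, 97.7, 57.3 and 55.1 in KO DP, so that replicate 4 no longer stood lowest. Between the low and high sample numbers of the titles, which may mark separate experiments though the labels do not say so, Penk differed little: KO DP minus WT SP was 4.52 within titles 34 to 37 and 4.98 within titles 738 to 741. KO SP minus WT SP, which only titles 738 to 741 can give within a range, was 0.95 ± 0.29 (SE). Both KO SP libraries lay above WT SP replicates 3 and 4, so the overlap of these groups rests on WT SP replicates 1 and 2. Regulatory T cell markers moved with Penk. Foxp3, Il2ra and Ikzf2 summed to 7.18 to 38.9 FPKM in KO DP, 1.17 to 2.11 FPKM in KO SP and 0.594 to 3.11 FPKM in WT SP, and Foxp3, the lineage factor of regulatory T cells, was 28.3, 19.8, 3.52 and 4.94 FPKM in KO DP and listed at 0 in the other 6 libraries. Across the 4 KO DP libraries the order of Foxp3 was not that of Penk, and the part of these cells in the Penk level was not tested. Dendritic cell markers also stood highest in KO DP. The 6 listed markers summed to 4.90 to 6.00 FPKM in KO DP, 2.09 and 2.57 FPKM in KO SP and 1.51 to 3.40 FPKM in WT SP, so that KO DP did not overlap the other groups. Myeloid markers, 8 found of 9 listed, varied widely within groups. They summed to 156, 104, 6.69 and 12.2 FPKM in KO DP and 16.4 and 12.3 FPKM in KO SP. In WT SP they summed to 55.4, 172, 12.2 and 24.3 FPKM. WT SP replicate 2, with the highest sum, also had the highest Penk and the lowest Cnr2 and Gabrr2 of the WT SP libraries. The part of dendritic and myeloid cells in the levels of Penk, Hrh4 and the other members was not tested.

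Hrh4, the histamine H4 receptor, stood at 19.3, 34.2, 45.8 and 21.9 FPKM in KO DP, 4.54 and 4.84 FPKM in KO SP and 0.692, 0.558, 0.266 and 1.15 FPKM in WT SP. No 2 of the 3 groups overlapped. The means were 30.3 ± 12.2 FPKM (SD, n = 4), 4.69 ± 0.216 FPKM (SD, n = 2) and 0.666 ± 0.367 FPKM (SD, n = 4), so that KO DP was 6.46 times KO SP and KO SP was 7.05 times WT SP. On log2(FPKM + 1) the differences were 4.18 ± 0.31 (SE) for KO DP minus WT SP, 2.38 ± 0.38 for KO DP minus KO SP and 1.80 ± 0.38 for KO SP minus WT SP. Hrh4 thus had a graded level over the 3 groups, with both KO groups above WT SP. Within titles 34 to 37 and 738 to 741 KO DP minus WT SP was 4.04 and 4.31, and KO SP minus WT SP, which only the second range can give, was 1.79.

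H4 receptors are known from mast cells, basophils and eosinophils, and their markers were set beside it. Of the 11 listed markers 10 were found, and their sum was 0.645 to 1.93 FPKM in KO DP, 4.53 and 4.73 FPKM in KO SP and 0.865 to 2.004 FPKM in WT SP. The mast cell protease gene Tpsb2 was listed at 0 in every library and the basophil protease gene Mcpt8 at 0 in every library but KO DP replicate 4, at 0.230 FPKM. The KO SP sum was mostly Gata1, at 3.15 and 3.49 FPKM. Both IgE receptor markers were highest in KO DP. Ms4a2, the beta chain of the high-affinity IgE receptor, was 0.581 and 0.482 FPKM in KO DP replicates 3 and 4, 0.0531 FPKM in KO SP replicate 2 and 0 in the other 7 libraries. Fcer1a, its alpha chain, was highest in KO DP replicate 4, at 0.296 FPKM. KO DP replicates 3 and 4 are also the libraries with the raised olfactory receptor mean. Other listed markers went the other way. Epx was at most 0.0377 FPKM in KO DP, 0.893 and 0.808 FPKM in KO SP and 0.0747 to 0.983 FPKM in WT SP. Cpa3 was highest in KO SP, at 0.400 and 0.377 FPKM, and Prg2 was highest in WT SP, at up to 0.366 FPKM. The part of these cells in the Hrh4 level was not tested.

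Cnr2, the CB2 cannabinoid receptor, stood at 0.979, 0.410, 0.591 and 0.523 FPKM in KO DP, 15.5 and 23.3 FPKM in KO SP and 23.5, 8.69, 25.1 and 19.6 FPKM in WT SP. All 4 KO DP libraries lay below the other 6, and the KO SP values fell inside the WT SP range. KO DP minus WT SP was -3.55 ± 0.33 (SE) on log2(FPKM + 1), KO DP minus KO SP was -3.63 ± 0.41 and KO SP minus WT SP was 0.08 ± 0.41. In FPKM the KO SP mean of 19.4 ± 5.50 (SD, n = 2) was 31.0 times the KO DP mean of 0.626 ± 0.247 (SD, n = 4). The difference was present in both title ranges, at -3.20 within 34 to 37 and -3.89 within 738 to 741. CB2 is also abundant on B cells, whose 7 markers summed to 45.9 to 81.4 FPKM in KO DP, 85.0 and 107.0 FPKM in KO SP and 35.9 to 105.0 FPKM in WT SP. The B cell sums of KO DP lay inside the WT SP range and below both KO SP sums, the latter in the direction of Cnr2. The part of B cells in the Cnr2 level was not tested.

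Gabrr2, the rho2 subunit of GABA-gated channels, stood at 1.53, 0.450, 1.26 and 1.16 FPKM in KO DP, 13.9 and 15.4 FPKM in KO SP and 3.03, 0.977, 2.37 and 2.71 FPKM in WT SP. Both KO SP libraries were above all other 8, and the KO DP and WT SP ranges overlapped. KO SP minus WT SP was 2.31 ± 0.35 (SE) on log2(FPKM + 1), KO DP minus KO SP was -2.93 ± 0.35 and KO DP minus WT SP was -0.62 ± 0.29. The KO SP mean of 14.6 ± 1.01 FPKM (SD, n = 2) was 6.45 times that of WT SP and 13.3 times that of KO DP. Of the 5 genes Gabrr2 was the one whose KO SP libraries lay above both other groups. KO SP occurs only under titles 738 and 739, so this height rests on 2 libraries, and within titles 738 to 741 KO SP minus WT SP was 2.14.

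Gpm6b stood at 15.5, 19.1, 12.7 and 5.83 FPKM in KO DP, 7.98 and 8.13 FPKM in KO SP and 0.626, 0.249, 0.423 and 0.345 FPKM in WT SP. All 6 KO libraries were above all 4 WT libraries, and KO DP and KO SP overlapped through KO DP replicate 4. KO DP minus WT SP was 3.24 ± 0.32 (SE) on log2(FPKM + 1), KO SP minus WT SP was 2.69 ± 0.39 and KO DP minus KO SP was 0.55 ± 0.39. After median-ratio scaling the KO DP values were 13.2, 16.3, 17.0 and 12.4 against 6.49 and 6.997 in KO SP, so the overlap of the 2 KO groups depended on the scaling, and KO DP minus KO SP was then 1.01. Within titles 34 to 37 and 738 to 741 KO DP minus WT SP was 3.68 and 2.80, and within the second range KO DP minus KO SP was 0.09.

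Since Gpm6b lies on the X chromosome and the KO libraries carry Xist, the X-linked genes were set beside it. Over 183 X-linked genes in the fit the median of KO DP minus WT SP was -0.23, against -0.37 over 6049 autosomal genes, and the median of KO SP minus WT SP was 0.13 against 0.09. Gpm6b ranked 3 among these 183 X-linked genes in KO DP minus WT SP and 1 in KO SP minus WT SP. Genes that the peak lists do not place on a chromosome are in neither set, so the ranks hold only among the genes placed. Of the 183 X-linked genes 14 were called higher in KO DP than in WT SP, against 319 of all 11162 genes in the fit (2.86%). In KO SP over WT SP 2 of the 183 were called higher, against 8 of the 11162 (0.0717%). In both comparisons the share was larger among the X-linked genes. The 183 include Gpm6b itself, which was chosen on these levels, and the 11162 include the X-linked genes. Nothing is therefore read from these shares. The glial markers Mog, Gfap and Sox10 were at most 0.0774 FPKM in any library. Some neuronal markers stood higher in KO DP. Stmn2, a neuronal stathmin, was 2.72, 5.34, 10.1 and 11.6 FPKM in KO DP, 2.97 and 1.79 FPKM in KO SP and at most 0.0814 FPKM in WT SP. Snap25, a synaptic vesicle fusion protein, was 0.860 and 0.869 FPKM in KO DP replicates 3 and 4 and at most 0.102 FPKM in the other libraries. The neuronal splicing factor Rbfox3 was 0.591 and 0.706 FPKM in the same 2 libraries and at most 0.0735 FPKM elsewhere. Nefl, a neurofilament, was 0.0521 to 0.172 FPKM in KO DP and 0 elsewhere. The 11 neuron and glia markers summed to 29.1 to 48.0 FPKM in KO DP, 33.7 and 40.5 FPKM in KO SP and 36.3 to 48.0 FPKM in WT SP, largely through Mbp, which T cells also transcribe. The part of sex and of other cells in the Gpm6b level was not tested.

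**Figure D2:**
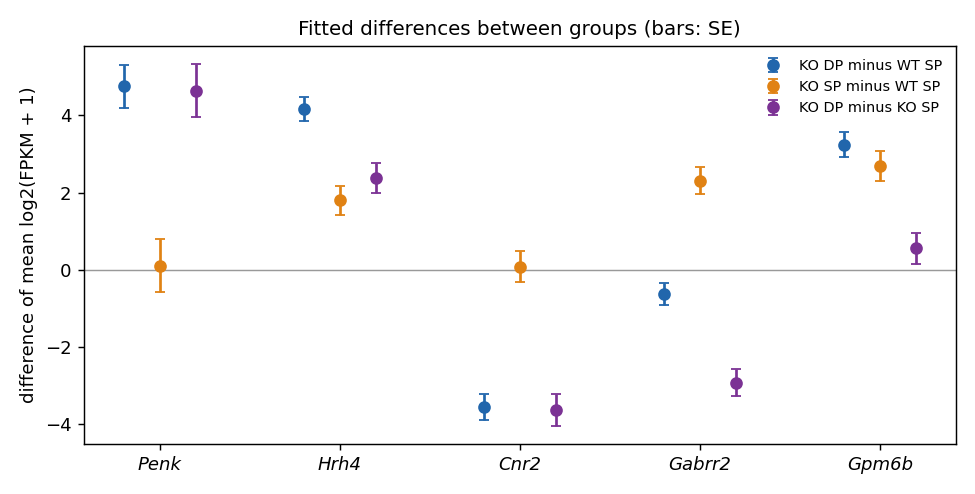
Difference in log2(FPKM + 1) with its SE from the fit for each of the 5 genes in the 3 comparisons. Penk, Hrh4 and Gpm6b lie at 3.24 to 4.75 and Cnr2 at -3.55 in KO DP minus WT SP, and Hrh4, Gabrr2 and Gpm6b lie at 1.80 to 2.69 in KO SP minus WT SP.

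Counted over the members, the groups did not overlap for 4 of 5 genes when KO DP was set against WT SP, with 3 of them higher in KO DP, where 16.5% of the 11162 genes in the fit did not overlap. Between KO DP and KO SP 4 of 5 did not overlap, 2 higher and 2 lower, against 39.9% of all genes. Between KO SP and WT SP 3 of 5 did not overlap, all higher in KO SP, against 32.2% of all genes. The members were chosen on these levels, so nothing is read from these counts, and the 3 comparisons share their samples pairwise. The median difference over all genes in the fit was -0.38 for KO DP minus WT SP, -0.43 for KO DP minus KO SP and 0.11 for KO SP minus WT SP, and member values are to be read beside it. By limma with Benjamini-Hochberg adjustment at 0.05, 2.86% of genes were higher and 5.03% lower in KO DP than in WT SP. With the replicate block by description number the calls went from 319 higher and 562 lower to 765 higher and 1008 lower. The shares were 0.421% and 1.65% for KO DP against KO SP and 0.0717% and 0.0448% for KO SP against WT SP. Median-ratio scaling moved the median of all genes to -0.04, 0.0024 and 0.02, and the share of higher genes among the called ones from 36.2% to 51.1%, from 20.3% to 41.2% and from 61.5% to 75.0%, while the sign of each member difference named here as free of overlap stayed as given.

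The genes around the members in each signalling system were examined next, in lists of opioid, histamine, cannabinoid, GABA and proteolipid genes that leave the members out. Of 70 listed symbols 68 were in the table and 19 were abundant enough for the fit. Of the 19, KO DP had 3 above and 1 below WT SP by the test, with 15 not called, and the median over the 19 was -0.18 against -0.38 over all genes. Of the 3 above, the GABA genes Abat and Slc6a13 reached the filter only through KO DP, so nothing is read from this count. The split depended on the libraries and the fit, with 2 above and 7 below within titles 738 to 741 and 4 above and 3 below with the title range as a term. Between KO DP and KO SP none was higher and 1 was lower, with a median of -0.29 against -0.43. Between KO SP and WT SP limma called 0 of the 19, 2 had an unadjusted p under 0.05, and the median was 0.22 against 0.11. The 49 genes below the filter included 30 whose highest level was in KO DP replicate 3 or 4, the 2 libraries that stand apart, and 2 that were listed at 0 throughout.

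**Figure D3:**
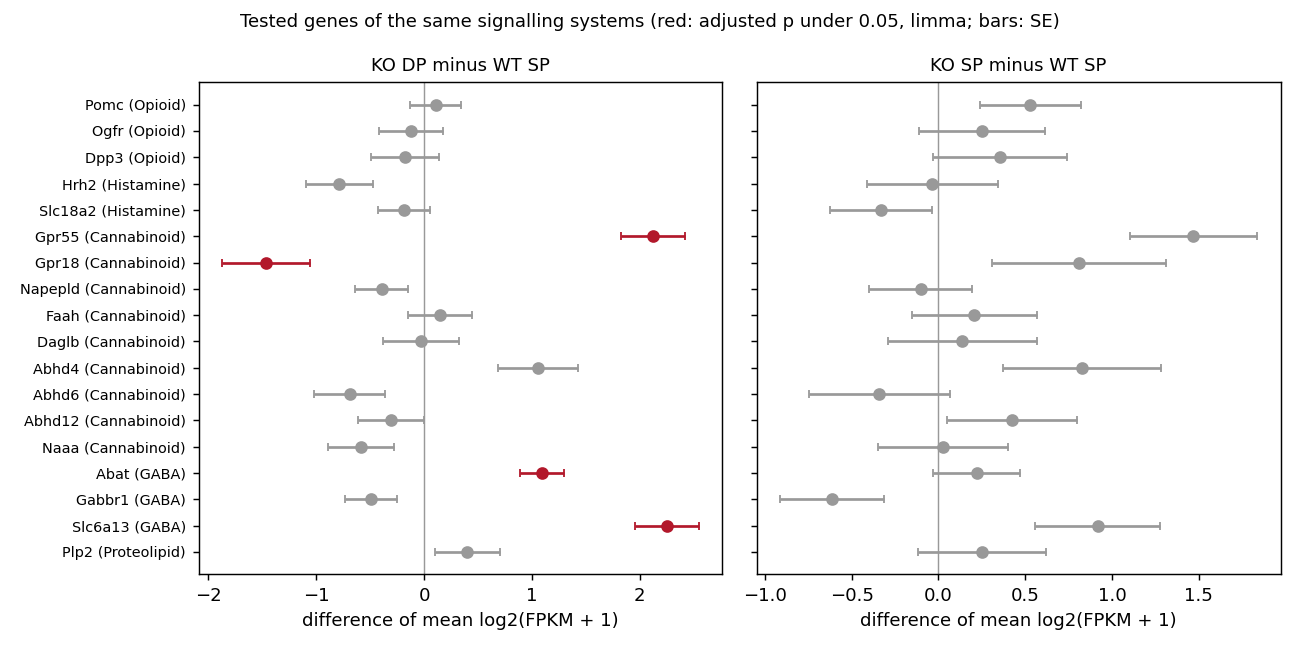
Difference in log2(FPKM + 1) with its SE for 18 of the 19 signalling genes in the fit, without the 5 members, in KO DP minus WT SP and KO SP minus WT SP, with called genes (limma, adjusted p under 0.05) in red and the others in grey. Gpr55, Slc6a13 and Abat lie at 1.09 to 2.25 and Gpr18 at -1.46 in KO DP minus WT SP. Slc6a13 and Abat reached the filter only through KO DP.

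Of the opioid precursors Penk alone reached more than a few FPKM. Pomc, the precursor of beta-endorphin, was 0.519 to 1.92 FPKM over the 10 libraries, Pdyn, the prodynorphin gene, at most 0.172 FPKM and Pnoc, the pronociceptin gene, at most 0.846 FPKM. Of the 14 opioid genes found 3 entered the fit, Pomc, Ogfr and Dpp3, and limma called none in any comparison, adjusted or at an unadjusted p under 0.05. The opioid growth factor receptor Ogfr and the enkephalin-degrading peptidase Dpp3 had KO DP minus WT SP of -0.12 ± 0.30 (SE) and -0.18 ± 0.32 (limma, adjusted p = 0.779 and 0.697). The opioid receptor gene Oprm1 was listed at 0 in every library, and Oprd1 reached at most 0.129 FPKM and Oprk1 at most 0.0761 FPKM. Below the filter, and chosen after their values were seen, were the processing enzymes that turn proenkephalin into peptides. Pcsk1, a prohormone convertase, was 1.76, 0.877, 0.648 and 0.336 FPKM in KO DP and at most 0.1396 FPKM in the other libraries. Cpe, the carboxypeptidase that trims the cut peptides, was 0.490, 1.05, 1.04 and 0.618 FPKM in KO DP and at most 0.113 FPKM in the other libraries. Both had all 4 KO DP libraries above the other 6, at levels far under that of Penk. They are 2 of 11 opioid genes below the filter. Of the genes in the fit 16.5% did not overlap between KO DP and WT SP and 39.9% between KO DP and KO SP. The share among genes below the filter was not computed, so nothing is read from this order.

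Of the histamine genes 8 were found and 2 entered the fit, with none called. Hrh2, the H2 receptor, was 9.50, 9.43, 5.11 and 3.31 FPKM in KO DP, 11.6 and 11.1 FPKM in KO SP and 12.01, 11.9, 11.998 and 10.7 FPKM in WT SP. The groups KO DP and WT SP did not overlap, but KO DP minus WT SP, -0.78 ± 0.31 (SE), did not pass (limma, adjusted p = 0.132). Hrh1 and Hrh3 were at most 0.0654 FPKM. The order of the 2 receptors turned between the groups: Hrh2 was above Hrh4 in each WT SP and KO SP library and below it in each KO DP library, a comparison within the library and per length of transcript. Hdc, which makes histamine, was 0.310 to 0.708 FPKM in all 10 libraries, and the vesicular amine transporter Slc18a2 was not called.

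The cannabinoid list gave 9 genes in the fit of 13 found, 1 higher and 1 lower in KO DP than in WT SP. Gpr55, a receptor for lysophosphatidylinositol that also binds some cannabinoids, was 10.3, 8.78, 7.68 and 5.14 FPKM in KO DP, 4.09 and 5.07 FPKM in KO SP and 2.16, 1.01, 0.816 and 0.415 FPKM in WT SP. The groups KO DP and WT SP did not overlap, and Gpr55 rose by 2.12 ± 0.30 (SE) on the log2 scale (limma, adjusted p = 0.0018, higher in 4 of 4 libraries). The KO SP value of 1.47 ± 0.37 over WT SP did not pass (limma, adjusted p = 0.355), but passed with the title range as a term (1.76, adjusted p = 0.0359) and within titles 738 to 741 (1.79, adjusted p = 0.0183). Within titles 738 to 741 KO DP minus WT SP of Gpr55 was 2.19 (limma, adjusted p = 9.1e-04) and within 34 to 37 it was 2.06 (adjusted p = 0.0687, with 2 libraries a group).

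Gpr18, another lipid receptor, was 89.5, 64.8, 50.4 and 24.2 FPKM in KO DP, 271 and 237 FPKM in KO SP and 153.0, 81.2, 185 and 187 FPKM in WT SP. KO DP fell by 2.27 ± 0.50 (SE) against KO SP on the log2 scale (limma, adjusted p = 0.041), with no overlap, and KO DP minus WT SP was -1.46 ± 0.41 (adjusted p = 0.0494), with KO DP replicate 1 above WT SP replicate 2. Like Cnr2, Gpr18 was thus lowest in KO DP, but its calls were fragile. The call against WT SP was lost without KO DP replicate 2, 3 or 4 (adjusted p = 0.056, 0.124 and 0.0606), without either KO SP library (0.0782 and 0.0798) and without WT SP replicate 1, 3 or 4 (0.114, 0.152 and 0.145), and within titles 34 to 37 the difference was -0.54 (adjusted p = 0.477) against -2.38 within titles 738 to 741 (adjusted p = 0.0029). The call against KO SP was lost without KO DP replicate 2 or 3 (0.0535 and 0.0948), either KO SP library (0.368 and 0.377) or WT SP replicate 1, 3 or 4 (0.0709, 0.061 and 0.0629), and with KO DP limited to replicates 1 and 2 the values were -0.91 against WT SP (0.145) and -1.72 against KO SP (0.052). The enzymes of endocannabinoid turnover were not called: Faah, which degrades anandamide, had a KO DP minus WT SP of 0.15 ± 0.29 (SE), Abhd12 of -0.30 ± 0.31 and Daglb, which makes 2-arachidonoylglycerol, of -0.03 ± 0.35.

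Among GABA genes 3 of 29 found entered the fit and 2 of these rose in KO DP against WT SP. Both, Abat and Slc6a13, reached the filter only through KO DP. The mean of Abat was 1.25 FPKM in KO DP against 0.215 FPKM in KO SP and 0.0428 FPKM in WT SP. That of Slc6a13 was 4.41 FPKM in KO DP against 1.01 FPKM in KO SP and 0.0611 FPKM in WT SP. Nothing is therefore read from this count, and the p-values of both genes below carry the same selection. Slc6a13, the GABA transporter GAT2, was 6.31, 6.27, 3.01 and 2.05 FPKM in KO DP, 0.913 and 1.10 FPKM in KO SP and 0.0948, 0.0955, 0.0182 and 0.0357 FPKM in WT SP. The groups were fully ordered, KO DP above KO SP above WT SP. KO DP rose over WT SP by 2.25 ± 0.29 (SE; limma, adjusted p = 9.9e-04, 2.74 and 1.77 within the low and high title ranges), and KO DP minus KO SP of 1.33 ± 0.36 did not pass (adjusted p = 0.0764). The latter passed by limma with median-ratio scaling (1.64, adjusted p = 0.0016), within titles 738 to 741 (0.80, adjusted p = 0.0202), with the replicate block by title number (0.80, adjusted p = 0.0316), without KO DP replicate 4 (1.58, adjusted p = 0.0249) and with KO DP limited to replicates 1 and 2 (1.86, adjusted p = 0.0032). Abat, the transaminase that degrades GABA, was 1.28, 1.59, 1.48 and 0.662 FPKM in KO DP, 0.169 and 0.261 FPKM in KO SP and at most 0.0974 FPKM in WT SP, and rose by 1.09 ± 0.20 over WT SP (limma, adjusted p = 0.0087), with 1.17 within titles 34 to 37 (adjusted p = 0.110) and no value within 738 to 741, where it was below the filter. At a pseudocount of 0.1 the Abat difference was 3.24, and without KO DP replicate 1, 2 or 3 Abat fell below the filter and had no test. The pattern of Gabrr2, highest in KO SP, was shared by neither gene. Gabbr1, a subunit of the metabotropic GABA receptor, was not called, and the 26 other GABA genes were below the filter, the highest at 0.641 FPKM. Plp2 of the proteolipid list was not called, with a KO DP minus WT SP of 0.40 ± 0.30 (SE; limma, adjusted p = 0.372).

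For each member the genes with the most similar pattern were found by Pearson's r of log2(FPKM + 1) over the 10 libraries, which share their groups, depth and scaling. The lists depended on the measure: by Spearman's rho 0, 1, 1, 1 and 0 of the 3 nearest genes of Penk, Hrh4, Cnr2, Gabrr2 and Gpm6b stayed among the 3 nearest, and after median-ratio scaling 1, 1, 1, 3 and 2 did. Penk was most like Tnfrsf4 (r = 0.99), the costimulatory receptor OX40, which was 80.8 ± 38.4 FPKM (SD, n = 4) in KO DP, 3.17 ± 0.280 FPKM (SD, n = 2) in KO SP and 3.51 ± 2.68 FPKM (SD, n = 4) in WT SP. Rbm47 and Cd200r1 came next for Penk. Hrh4 was most like the carboxylesterase genes Ces2d-ps and Ces2c, whose close similarity to each other leaves their FPKM uncertain, and Cd40lg (r = 0.98), the CD40 ligand of helper T cells. The means of Cd40lg were 29.0 FPKM in KO DP, 3.83 FPKM in KO SP and 0.756 FPKM in WT SP, in the same order as Hrh4. Cnr2 was most like Aqp9, Treml2 and Dmrta1, each at r = 1.00 to 2 decimals. Aqp9, a water and glycerol channel, was 0.542 ± 0.411 FPKM (SD, n = 4) in KO DP, 44.4 ± 5.87 FPKM (SD, n = 2) in KO SP and 44.8 ± 19.3 FPKM (SD, n = 4) in WT SP.

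Gabrr2 was most like Gata1 (r = 0.97), a transcription factor of blood lineages, with means of 0.227, 3.32 and 0.463 FPKM in KO DP, KO SP and WT SP, followed by Tspan9 and Igf2bp2. Gpm6b was most like Nlrp1b (r = 0.99), an inflammasome sensor, Npdc1 and Xist (r = 0.98), and the last of these follows the sex of the libraries. Among the members themselves r was -0.97 for Penk with Cnr2, 0.91 for Hrh4 with Gpm6b, 0.88 for Penk with Hrh4 and 0.02 for Gabrr2 with Gpm6b. For Gabrr2 r was also 0.65 with Cnr2, -0.63 with Penk and -0.30 with Hrh4. Gabrr2 was thus the member least tied to the others, though not unrelated to Cnr2 and Penk.

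The genes next to each member by RefSeq order were examined to see whether they moved with it. They were chosen by position, after the member values were known. Around Penk, Sdr16c6 was listed at 0 in all libraries and Fam110b reached 0.217 FPKM, both below the filter. Beside Hrh4, Impact did not pass (-0.21 for KO DP minus WT SP, limma, adjusted p = 0.589) and Zfp521 was at most 0.157 FPKM. The neighbours of Cnr2 did not pass either, Pnrc2 at -0.50 (limma, adjusted p = 0.246) and Fuca1 at -0.59 (0.234). Beside Gabrr2, Ube2j1 was at -0.05 (limma, adjusted p = 0.935), while the sister subunit Gabrr1 was below the filter, at 0.285 and 0.345 FPKM in KO SP and at most 0.206 FPKM in the other 8 libraries. Next to Gpm6b, Gemin8 rose in KO DP over WT SP by 0.96 ± 0.23 (SE; limma, adjusted p = 0.0288) and Trappc2 was at -0.54 (0.322). Of the 6 neighbours in the fit Gemin8 was the one that passed, and like Gpm6b it is X-linked.

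H3K9me3 peaks named for the members lay mostly far from the start sites. The lists held 85960 (WT 1), 23304 (WT 2), 111149 (KO 1) and 154997 (KO 2) peaks, and the members were the named gene of 21, 6, 21 and 39 of these, or 0.0244%, 0.0257%, 0.0189% and 0.0252%. Of the 87 peaks 75 were intergenic and 12 intronic, 34 lay in annotated repeats, and 3 were within 10 kb of the start site. These counts were not set beside those of all peaks, so they are not read as a trait of the members. Scores are the authors' own, and their median differed between lists, at 11.9, 17.4, 9.22 and 9.32, so the scores of most intronic peaks are also given as multiples of their list's median. With 2 libraries a genotype the peaks were not tested, and these cultured cells are not the cells of the RNA libraries.

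**Figure D4:**
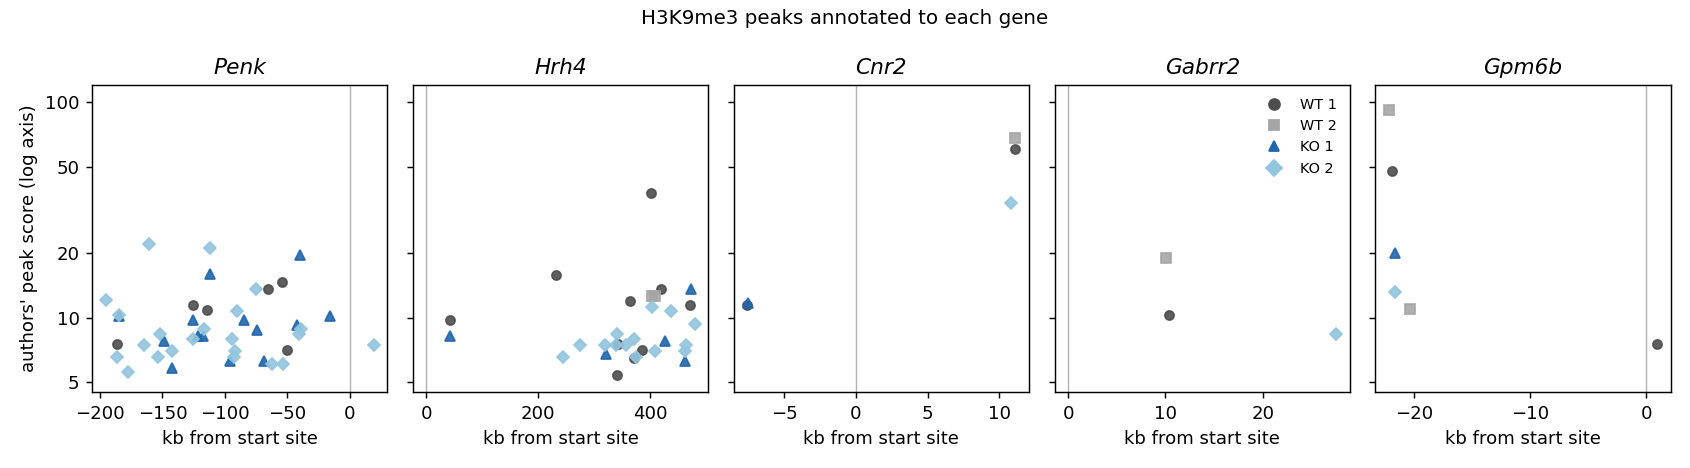
The authors' score of each H3K9me3 peak named for a member, on a log axis, against its distance from the start site in kb (negative is upstream), with 1 symbol per library. Gpm6b has a peak 21.7 to 22.2 kb upstream in all 4 lists, with scores of 47.6 and 91.5 in WT and 19.9 and 13.1 in KO, and the Penk and Hrh4 peaks lie 15.9 to 480.1 kb from the start sites.

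The clearest mark lay in the first introns of Gpm6b and Cnr2. In Gpm6b, intron 1 of 6 held a peak in all 4 lists, together spanning chrX:162759466-162761539 of mm9, 21.7 to 22.2 kb upstream of the nearest annotated start. Its score was 47.6 in WT 1, 91.5 in WT 2, 19.9 in KO 1 and 13.1 in KO 2, or 4.00, 5.26, 2.16 and 1.41 times the list median. Both WT values were above both KO values on either scale. The Cnr2 peak described next was likewise lower in KO 2 than in both WT lists. Scores of other peaks shared by the lists were not set beside these, so the order is not read as a trait of Gpm6b. The sex of the mice behind these lists was not checked, and its part in the score of this X-linked gene was not tested. A peak 0.933 kb downstream of another annotated Gpm6b start was present in WT 1 alone, with a score of 7.57, under that list's median. Its distance and that of the shared peak are from different starts and are not on a common scale. Gpm6b was thus the member with a peak region shared by all 4 lists.

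In Cnr2, intron 1 of 1 held a peak over chr4:135461396-135463370 of mm9 in 3 of the 4 lists, about 11 kb downstream of the start. The score was 60.6 in WT 1, 67.9 in WT 2 and 34.0 in KO 2, or 5.09, 3.90 and 3.65 times the list median, and KO 1 had no peak there. Both WT peaks were annotated to an RLTR19 element, a long terminal repeat of the ERVK class, and the KO 2 peak to a B1_Mur3 element. A second region, 7.48 to 7.55 kb upstream, had scores of 11.4 in WT 1 and 11.7 in KO 1. In Gabrr2, intron 2 of 8 held a peak over chr4:33159920-33160697 of mm9 in WT 1 and WT 2, with scores of 10.3 and 18.9, and in neither KO list, and KO 2 had a peak of score 8.39 in intron 8. These scores were 0.866, 1.09 and 0.9002 times the list medians, so the Gabrr2 peaks were ordinary ones of their lists.

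Penk and Hrh4 had no peak within 10 kb of the start in any list. Penk was the named gene of 6 peaks in WT 1, 0 in WT 2, 14 in KO 1 and 22 in KO 2, all intergenic, 15.9 to 195.4 kb away, with scores of 5.59 to 21.9. As shares of the lists these were 0.00698%, 0%, 0.0126% and 0.0142%, so the KO lists held the larger shares as well as the larger numbers. Hrh4 was the named gene of 10, 2, 5 and 14 peaks, all intergenic and 41.5 to 480.1 kb downstream, with scores of 5.41 to 37.9 and with no order by genotype in number or share. Merged over the lists, the peaks of the 5 members formed 67 regions, of which 51 were in 1 list, 13 in 2, 2 in 3 and 1 in all 4. Both WT lists held 3 of these regions, 1 each at Cnr2, Gabrr2 and Gpm6b, and both KO lists held 7, 6 of them at Penk and 1 at Gpm6b. The KO lists were the longer ones, at 111149 and 154997 peaks against 85960 and 23304 in WT. The same counts over all regions were not set beside these, so nothing is read from them about the members.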

How the data were processed

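RNA was measured in 10 libraries and H3K9me3 in 4. Per the labels' protocols, 5 ng of total RNA or less was amplified by SMART-Seq v4 and tagmented by Nextera, which do not mark strand. The authors deposited FPKM, and the submitters' processing notes name TopHat, Cufflinks and mm9. For peaks the submitters' processing notes name Bowtie, HOMER and mm9, and the authors deposited a score with each peak. Other quantities of the deposited peak tables, distance and length in base pairs, are used as given per the file headers. Not given in the sources used here were versions, the calling threshold and the use of inputs. The input libraries were not analysed here. FPKM holds no read counts, so the depth behind each value is unknown and no counting interval was computed. The commonest ratio of low FPKM values to those of KO SP replicate 1 gave a relative depth of 0.799 to 1.57 times that library. At most 13.8% of the low values in the other libraries lay at that ratio, which is too few to recover reads.

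Groups were taken from the labels. Lines repeating a symbol (466 of 23700) were summed. The 11162 genes averaging 0.5 FPKM or more entered a fit by limma (version 3.58.1, R 4.3.3) of log2(FPKM + 1) that used a mean-variance trend, the 3 groups sharing 1 spread (7 residual degrees of freedom), no rescaling, and Benjamini-Hochberg adjustment over all of them at 0.05. The fit was tested on simulated data. Nothing says that replicates were separate animals. The p-values therefore measure only the spread between samples, which may be technical. Tables were handled in Python 3.11.15 with pandas 2.3.3 and numpy 2.4.6. Peaks overlapping by at least 1 base pair were merged into regions. The members and the gene lists were chosen with earlier results of these data known. Named genes were the members, list genes called in any comparison, the 3 most abundant uncalled genes of each list, and the 3 genes most correlated with each member, leaving out models without a symbol of their own. Any further gene named was picked with its values in view.

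The numbers in the sample descriptions were checked for pairing. Deviations from the group means were correlated between libraries of KO DP and WT SP. For libraries of the same number r was 0.119, 0.293, 0.111 and 0.103, all over 0.1. A block by these numbers was therefore fitted as an alternative, while the main fit was unpaired. KO DP replicates 3 and 4, however, correlated better with a WT SP library of another number (0.201 and 0.243). Every KO DP and WT SP pair within a title range was positive (0.0685 to 0.293), and every pair across ranges was negative (-0.291 to -0.101). These correlations therefore cannot tell pairing by number from the title range. For KO DP and KO SP libraries with the same title number r was 0.143 and 0.0908. Alternatives changed the pseudocount, filter, scaling, trend, block and libraries used. The values of 1 listed gene are not reported here, though the list counts include it.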

Additional observations from a re-analysis of the deposited data

Results flagged for a closer look

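Of the values examined, 3 stood outside their group by Dixon's criterion for 4 samples, out of 40 groups of 4 libraries checked, where chance gives about 1 in 20. Hrh2 was 10.7 FPKM in WT SP replicate 4, below the other 3 WT SP libraries. Slc18a2, the vesicular amine transporter, was 2.86 FPKM in WT SP replicate 4, above the other 3. Plp2 was 18.4 FPKM in KO DP replicate 4, below the other 3 and in the library with the lowest sum of FPKM. No value of Penk, Hrh4, Cnr2, Gabrr2 or Gpm6b stood out in this way.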

How the results depend on the processing

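Of 285 alternative values for the 15 member differences, 267 moved by less than 1 residual SD and no difference between groups free of overlap changed sign. A pseudocount of 0.1 moved most of the others: KO DP minus WT SP became 6.36 for Penk, 5.36 for Hrh4, -4.68 for Cnr2 and 4.64 for Gpm6b, KO DP minus KO SP became -4.77 for Cnr2 and -3.73 for Gabrr2, and KO SP minus WT SP became 0.92 for Penk, 2.78 for Hrh4, 2.74 for Gabrr2 and 4.05 for Gpm6b. With median-ratio scaling KO DP minus KO SP became 2.84 for Hrh4, -2.50 for Gabrr2 and 1.01 for Gpm6b. With KO DP limited to replicates 1 and 2, Gpm6b became 3.70 against WT SP and 1.01 against KO SP. Within titles 738 to 741 KO DP minus KO SP of Gpm6b was 0.094, as with the replicate block by title number (0.094), and KO SP minus WT SP of Penk was 0.95. Leaving out each library in turn gave -0.21 to 0.66 for Penk and -0.24 to 0.36 for Cnr2 in KO SP minus WT SP, the 2 ranges that include 0.

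The counts of called signalling genes moved more. For KO DP minus WT SP (4) they were 7 with scaling, 7 with title range as a term, 1 within titles 34 to 37, 9 within 738 to 741, and 2 to 4 without single libraries (2 without KO DP replicate 2 or 3). The replicate block by description number gave 5, the same 4 genes among them, and left the member differences of KO DP minus WT SP as they were. Abat and Slc6a13, which are among the 4, reached the filter only through KO DP, so nothing is read from these counts. For KO DP minus KO SP (1) they were 0 with no filter, 3 with scaling, 7 with the replicate block by title number (4 libraries, 1 residual degree of freedom), 8 within 738 to 741, and 0 to 3 without single libraries. For KO SP minus WT SP (0) they were 1 with title range as a term, 1 within 738 to 741 and 0 to 0 without single libraries. Over all genes scaling raised the calls from 881 to 2011, 231 to 660 and 13 to 20, and the replicate blocks by description and title number raised the first from 881 to 1773 and the second from 231 to 4676. The cause of these changes was not tested.

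Of the 21, 6, 21 and 39 member peaks of WT 1, WT 2, KO 1 and KO 2, 8, 3, 10 and 11 had at least the median score of their list, and 2, 0, 1 and 0 were within 10 kb. Regions in at least 2 lists numbered 16, 12 at an overlap of 50%, and 7 to 15 without single lists. The alternatives within titles 738 to 741 for the 2 comparisons with KO SP were chosen after seeing the data. Limits: KO SP has 2 libraries, KO DP replicates 3 and 4 stand apart, FPKM gives no depth, and H3K9me3 has 2 libraries a genotype.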
